A study of Mus musculus with 8 samples.

Results

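The small leucine-rich proteoglycans (SLRPs) of the corneal stroma and a pair of further genes listed as keratocyte markers were followed in wounded mouse corneas with and without Opn5, the gene for the photopigment opsin 5 (neuropsin). The members were the 10 genes Lum, Kera, Dcn, Bgn, Ogn, Prelp, Fmod, Aspn, Angptl7 and Ptgds, chosen by name, and all 10 were found among the 16091 genes of the deposited table. There were 4 Opn5-null (Opn5-/-) and 4 wild-type libraries, lettered A to D, each from total RNA of whole cornea flash frozen 12 hours after the epithelium was debrided. Both genotypes were wounded, no unwounded cornea was compared, and every title carries the word Light, which no label explains. The labels do not say which strain or age was used, how many animals stand behind a sample, or how the null allele was made. Opn5 itself was not analysed here, so the genotype labels were not checked against it. No label says that the libraries came from separate animals, so p-values reflect only how far these samples scatter, and that scatter may be technical.

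Keratocytes are the resident cells of the corneal stroma and lay down its regularly spaced collagen fibrils. SLRPs are secreted proteins with leucine-rich repeats that bind those fibrils and limit their diameter and spacing, and many of them carry sulfated sugar chains. Class I members such as decorin carry chondroitin or dermatan sulfate, and class II members such as lumican and keratocan carry keratan sulfate, the chain for which the cornea is known. After a wound, keratocytes near the lesion can die or turn into repair fibroblasts that make a different matrix.

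In Opn5-null corneas the SLRP genes did not move as a block. Lum and Bgn were higher, by 1.67-fold and 1.52-fold, while Ogn was 1.88-fold lower and the secreted factor gene Angptl7 was 4.44-fold lower. Kera and Dcn had higher means but overlapping libraries, and Prelp, Fmod, Aspn and Ptgds did not pass the test. Calls are Benjamini-Hochberg adjusted p-values below 0.05 from limma, fitted over 16085 genes on log2(normalized count + 1). By that rule 18.8% of all genes tested were higher and 13.5% lower in Opn5-null corneas, 32.4% in either direction, so 2 members higher and 2 lower of 10 is near the background. Among genes at least as abundant as the least abundant member the share was 34.8%. All 4 libraries of one genotype lay beyond the other for 4 of the 10 members and for 38.4% of all genes tested. On the recovered reads edgeR called 4 of the 10 members and 31.9% of genes, and DESeq2 called 5 and 38.8%. The median log2 fold change of the 10 members was 0.03, beside -0.02 for all genes tested. Of all calls, 58.2% were higher with the deposited scaling, against 40.3% after quantile normalization, 40.8% with upper-quartile scaling and 42.8% with total-read scaling. These scalings placed the median of all genes at -0.13, -0.13 and -0.15.

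The proximal promoters of Bgn, Ogn and Angptl7, the called members with an entry in the RefSeq promoter table (GRCm38.p6), are printed to show how unlike their sequences are. The table matched 8 of the 10 members; Lum and Dcn had no entry. Each run covers 250 bases before and 50 after the annotated start, 5′ to 3′ on the gene's own strand. The windows lie at chrX:73483351-73483650 on the plus strand for Bgn, chr13:49607765-49608064 on the plus strand for Ogn, and chr4:148500413-148500712 on the minus strand for Angptl7. Capitals mark matches, on either strand, to any of 7 motifs: the TATA box TATAAA, the box named for its letters CCAAT, the GC box GGGCGG, the AP-1 site TGANTCA, the STAT site TTCNNNGAA, the E-box CACGTG and the glucocorticoid response element.
Bgn: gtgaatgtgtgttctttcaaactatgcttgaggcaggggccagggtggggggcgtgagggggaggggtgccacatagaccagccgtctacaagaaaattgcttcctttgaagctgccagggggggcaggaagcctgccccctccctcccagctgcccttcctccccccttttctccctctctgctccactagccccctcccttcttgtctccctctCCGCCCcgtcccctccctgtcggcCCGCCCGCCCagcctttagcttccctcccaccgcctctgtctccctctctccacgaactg
Ogn: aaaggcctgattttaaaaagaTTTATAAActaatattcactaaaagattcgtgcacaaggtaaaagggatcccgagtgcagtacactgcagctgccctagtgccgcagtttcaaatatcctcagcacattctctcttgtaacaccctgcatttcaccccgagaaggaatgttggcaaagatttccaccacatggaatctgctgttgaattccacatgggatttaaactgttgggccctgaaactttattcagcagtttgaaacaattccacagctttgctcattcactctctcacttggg
Angptl7: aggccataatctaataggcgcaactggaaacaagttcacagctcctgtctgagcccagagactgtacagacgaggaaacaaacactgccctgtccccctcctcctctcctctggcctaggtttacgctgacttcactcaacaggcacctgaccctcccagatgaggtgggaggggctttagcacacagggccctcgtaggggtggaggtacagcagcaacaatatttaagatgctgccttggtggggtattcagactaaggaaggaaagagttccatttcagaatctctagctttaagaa

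The Bgn window was GC-rich, at 63.7% G or C, and held 3 GC boxes in reverse orientation, beginning at positions -34, -10 and -6, counted from 0 at the start site; the last 2 overlap. A GC box is present in 35.7% of the 32851 promoters searched. The Ogn window, at 42.3% G or C, held the TATA box letters on both strands at -229 and -227, overlapping each other and far from the start, and 13.6% of all promoters hold those letters. The Angptl7 window, at 51.3% G or C, held none of the 7 motifs. These matches are descriptions of letters, not of bound sites.

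Levels of different genes were compared per kilobase of annotated exon (GENCODE M21), which understates genes with long alternative exons. In wild-type corneas Dcn led with 13971 ± 443 normalized counts per kb (SD, n = 4). Angptl7 followed at 12188 ± 1873 and Lum came next at 5775 ± 423. The Dcn and Angptl7 libraries overlapped, whereas every Lum library lay below both. Kera at 2018, Ogn at 1901 and Bgn at 1836 normalized counts per kb could not be ordered, since their libraries overlapped. Prelp at 857 and Fmod at 798 overlapped too, and Aspn at 209 and Ptgds at 95.3 normalized counts per kb stood last. In the Opn5-null libraries Angptl7 measured 2742 ± 1664 normalized counts per kb, below every Dcn and Lum library, and could not be ordered against Kera at 3293 or Bgn at 2794, whose libraries it overlapped. Ptgds, the gene of lipocalin-type prostaglandin D synthase and often used as a keratocyte marker, was thus weakly expressed in both genotypes, whereas Kera, the most keratocyte-restricted member, was abundant.

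**Figure D1:**
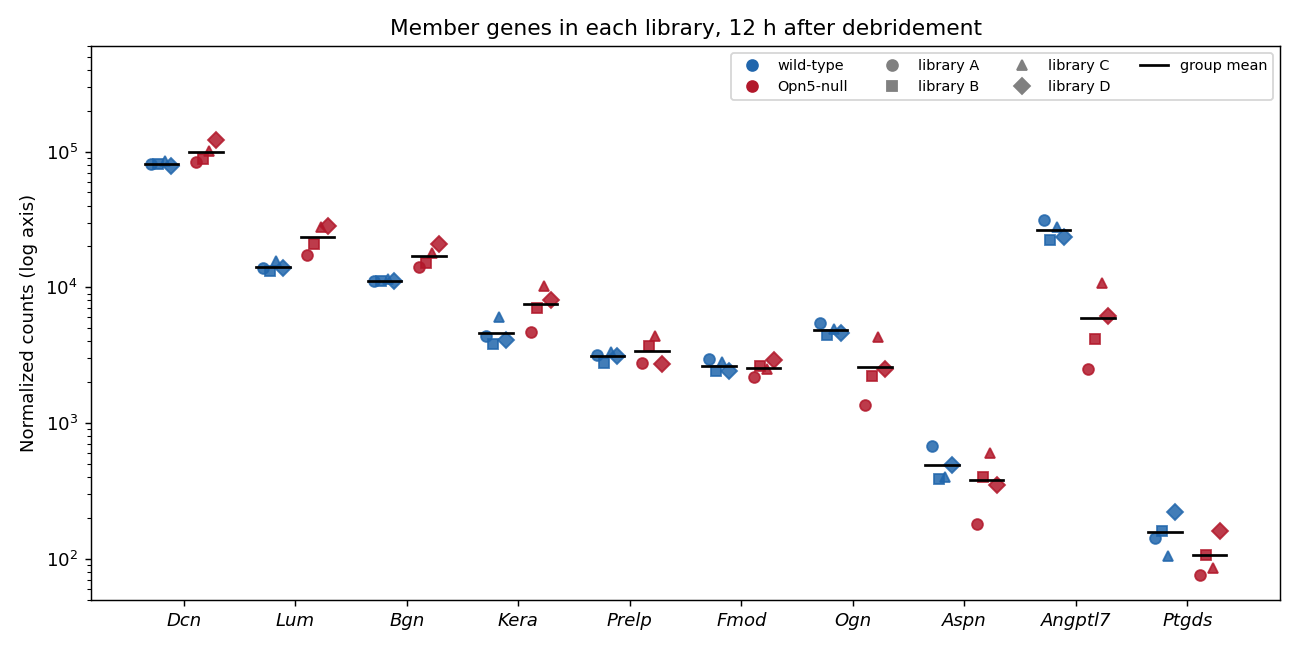
Normalized counts of the 10 members on a log axis, one symbol per library and letter, with wild-type in blue, Opn5-null in red and black bars at the group means. Lum and Bgn lie above every wild-type library in all 4 Opn5-null libraries, Ogn and Angptl7 lie below, and the other 6 members overlap.

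Among the keratan sulfate SLRPs, lumican is a class II protein needed for corneal transparency in mice. Lum (ENSMUSG00000036446) measured 13942, 13076, 15559 and 13972 normalized counts in wild-type A to D. It measured 17223, 20930, 27842 and 28372 in Opn5-null A to D. Every Opn5-null library lay above every wild-type one, a separation that 20.3% of all genes tested showed in that direction. The log2 fold change was 0.71 ± 0.16 (SE, adjusted p = 0.0116 by limma). With quantile normalization it was 0.52 and missed the threshold (adjusted p = 0.0972).

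Kera, which encodes keratocan, the class II SLRP most restricted to the cornea, measured 4358, 3847, 6086 and 4109 normalized counts in wild-type A to D and 4688, 7077, 10206 and 8061 in Opn5-null A to D. Opn5-null A lay below wild-type C, so the groups overlapped, and the other 3 Opn5-null libraries lay above all wild-type ones. The log2 fold change was 0.68 (95% interval 0.13 to 1.22), with adjusted p = 0.0613 by limma. Without Opn5-null A it was 0.88 and passed (adjusted p = 0.0128), and without wild-type C it was 0.82 and passed (adjusted p = 0.0486). DESeq2 and limma-voom on recovered reads also called it, with adjusted p = 0.0189 and 0.0113. The authors' deposited table gave the same adjusted p of 0.0189 as DESeq2 here and is not a separate call.

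Fmod encodes fibromodulin and Prelp encodes a basic class II protein that links matrix to basement membranes; both genes lie on chromosome 1. Fmod measured 2402 to 2944 normalized counts in wild-type and 2174 to 2922 in Opn5-null libraries. Its log2 fold change was -0.05 (95% interval -0.30 to 0.20), and the sign turned without Opn5-null A or wild-type A, at 0.03 and 0.01. Prelp measured 2758 to 3323 in wild-type and 2714 to 4414 in Opn5-null libraries. Its log2 fold change was 0.10 (95% interval -0.26 to 0.47), and it turned to -0.03, -0.01 and -0.03 (quantile, upper-quartile and total-read scaling). Without Opn5-null C it was -0.03. Of the annotated exon bases of Prelp 9.7% overlap the antisense gene Gm15851, and whether the counting used strand is not given in the sources used here.

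Dcn and Bgn encode decorin and biglycan, the class I SLRPs that bind collagen and growth factors of the TGF-beta family. Bgn (ENSMUSG00000031375), on the X chromosome, measured 11063, 11064, 11556 and 11109 normalized counts in wild-type A to D. It measured 14110, 15077, 17965 and 21006 in Opn5-null A to D. The groups did not overlap, and the wild-type libraries were nearly level while the Opn5-null ones spread 1.49-fold. The log2 fold change was 0.59 ± 0.12 (SE, adjusted p = 0.00806 by limma), and after quantile normalization it was 0.39 (adjusted p = 0.115), which ended the call. Dcn, the most abundant member, measured 81554, 81658, 84694 and 78355 normalized counts in wild-type A to D. It measured 83907, 88671, 100368 and 121127 in Opn5-null A to D. Only Opn5-null A lay within the wild-type range. Its log2 fold change of 0.26 (95% interval -0.02 to 0.54) missed the threshold (adjusted p = 0.138 by limma).

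Aspn, the class I gene for asporin, which inhibits TGF-beta signalling, measured 388 to 682 normalized counts in wild-type and 180 to 598 in Opn5-null libraries. It had a log2 fold change of -0.44 (95% interval -1.24 to 0.35), with adjusted p = 0.353. Ogn (ENSMUSG00000021390) encodes osteoglycin, also called mimecan, a class III SLRP abundant in cornea. It measured 5505, 4427, 4942 and 4635 normalized counts in wild-type A to D and 1352, 2234, 4291 and 2501 in Opn5-null A to D. All Opn5-null libraries lay below the wild-type ones, with C of the one close to B of the other, and 18.1% of all genes tested separated in that direction. The log2 fold change was -1.03 ± 0.30 (SE, adjusted p = 0.0310 by limma). The call ended without Opn5-null B or D, or any single wild-type library, with adjusted p = 0.0660, 0.0558, 0.0839, 0.0580, 0.0733 and 0.0656 in that order, while the log2 fold change stayed between -1.07 and -0.97.

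Ratios within a library do not depend on how libraries are scaled, and 3 were compared with exact two-sided permutation tests, adjusted over the 3. The Bgn to Dcn ratio of normalized counts was 0.136, 0.135, 0.136 and 0.142 in wild-type A to D and 0.168, 0.170, 0.179 and 0.173 in Opn5-null A to D. The difference of log2 ratios was 0.33 (exact permutation p = 0.0286, the smallest that 4 against 4 allows, adjusted p = 0.0429), higher in 4 of 4 libraries. The Fmod to Lum ratio was 0.211, 0.184, 0.180 and 0.172 in wild-type A to D and 0.126, 0.126, 0.0893 and 0.103 in Opn5-null A to D. That difference was -0.76 (exact permutation p = 0.0286, adjusted p = 0.0429), lower in 4 of 4 libraries. The log2 fold changes were -0.05 for Fmod and 0.71 for Lum, so it mostly restates that of Lum. All 4 libraries of one genotype lay beyond the other for 38.4% of single genes tested. No such share was computed for gene pairs. The Kera to Lum ratio was 0.323 ± 0.0463 in wild-type and 0.315 ± 0.0446 in Opn5-null libraries (SD, n = 4), a log2 difference of -0.04 (exact permutation p = 0.8286).

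**Figure D2:**
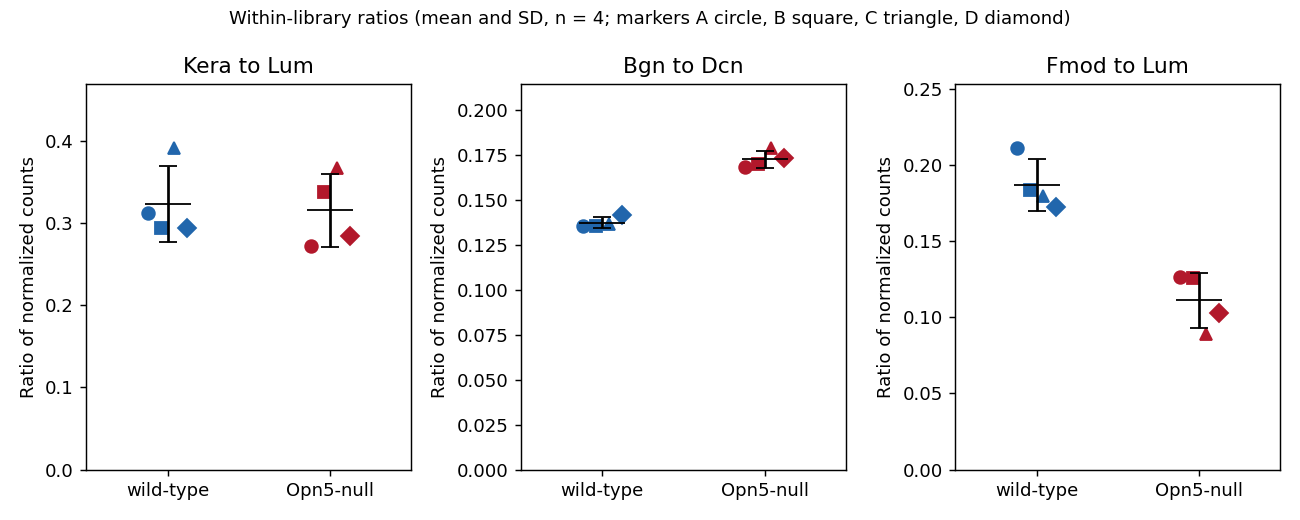
Within-library ratios of normalized counts for 3 pairs of SLRP genes, with one symbol per library and bars for mean and SD (n = 4 per genotype). The Bgn to Dcn ratio is higher in all Opn5-null libraries, the Fmod to Lum ratio is lower in all of them, and the Kera to Lum ratios overlap.

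Angptl7 encodes an angiopoietin-like protein secreted in the corneal stroma and in the outflow tissue of the eye, where it is studied for its effect on eye pressure and on vessel growth. Angptl7 (ENSMUSG00000028989) measured 31162, 22469, 28008 and 23522 normalized counts in wild-type A to D. It measured 2498, 4194, 10811 and 6157 in Opn5-null A to D. The highest Opn5-null library, C, was below the lowest wild-type library, B. The log2 fold change was -2.34 ± 0.39 (SE, adjusted p = 0.00299 by limma), and it kept its call under all 19 alternatives, between -2.70 and -1.995. Angptl7 lies within the gene Mtor on the opposite strand, but their annotated exons share 0 bases. Ptgds measured 143, 159, 104 and 222 normalized counts in wild-type A to D and 76.3, 107, 85.4 and 159 in Opn5-null A to D, with overlapping groups. Its log2 fold change was -0.56 (95% interval -1.21 to 0.10, adjusted p = 0.166 by limma). Without Opn5-null D it was -0.77 and passed (adjusted p = 0.0430).

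SLRP genes sit in groups on the chromosomes, and the calls were read by neighbourhood, a grouping made after the values were seen. On chromosome 10, Epyc, Kera, Lum and Dcn span 203 kb with no other coding gene between them (GENCODE M21). There 1 of 4 was higher, beside 18.8% of all genes tested, and 0 lower, and all 4 log2 fold changes were positive. Epyc, chosen after its values were seen, was low, at 17.4, 19.3, 5.74 and 18.7 normalized counts in wild-type A to D. It measured 15.8, 62.8, 19.2 and 13.9 in Opn5-null A to D, with overlapping groups. Its log2 fold change of 0.68 missed the threshold (adjusted p = 0.368 by limma), so its sign is uncertain. On chromosome 13, Ecm2, Aspn, Omd and Ogn span 120 kb, overlapped by the opposite-strand gene Cenpp. Of these 3 of 4 were lower, beside 13.5% of all genes tested, and all 4 log2 fold changes were negative. Because the grouping followed the values, an effect of neighbourhood was not tested. Omd, the gene of osteomodulin, measured 608, 366, 335 and 313 normalized counts in wild-type A to D and 98.7, 218, 305 and 108 in Opn5-null A to D, without overlap. Its log2 fold change was -1.25 ± 0.39 (SE, adjusted p = 0.0377). Ecm2, a matrix gene related to the SLRPs, measured 180 to 233 in wild-type and 100 to 153 normalized counts in Opn5-null libraries, with a log2 fold change of -0.53 (adjusted p = 0.0390). Both calls are close to the threshold. Omd lost its call without Opn5-null A or D or any single wild-type library, with adjusted p from 0.0597 to 0.102. Ecm2 lost it without Opn5-null A or B or any single wild-type library, with adjusted p from 0.0537 to 0.113.

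**Figure D3:**
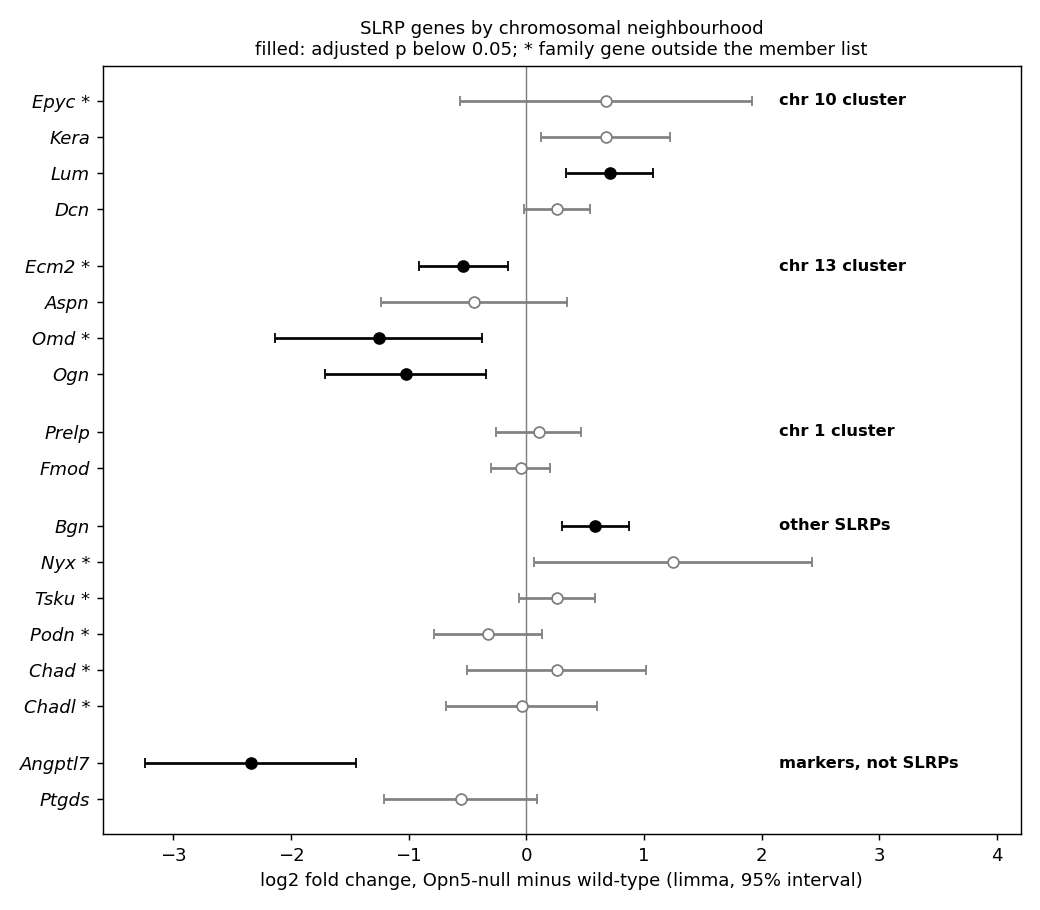
Log2 fold changes of SLRP genes and the other 2 members (Opn5-null minus wild-type, limma, bars are 95% intervals), grouped by chromosomal neighbourhood; filled symbols have adjusted p below 0.05. The chromosome 13 genes lie left of 0, the chromosome 10 genes lie right of it, and the chromosome 1 pair sits at 0.

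Of the 8 other SLRP family genes with values (of 10 listed), 0 were higher and 2 were lower, namely Omd and Ecm2, with a list median of 0.11. Beside that, 18.8% of all genes tested were higher and 13.5% lower. Tsku, the gene of tsukushi, measured 362 to 383 normalized counts in wild-type and 391 to 605 in Opn5-null libraries, without overlap, but missed the threshold (adjusted p = 0.187). Epyc, Chad, Chadl, Podn and Nyx averaged under 100 normalized counts in each genotype, and none of them passed. The higher count was 1 at an unadjusted limma p below 0.05, and 0 with edgeR and DESeq2, but 1 with limma-voom quality weights. The lower count was 1 with edgeR, where Omd missed the threshold (adjusted p = 0.0542). Without Opn5-null A, or any single wild-type library, 0 genes of this list were lower, and without Opn5-null B or D 1 was.

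The members differed more among the Opn5-null libraries than among the wild-type ones. Opn5-null A was the lowest of its genotype for 9 of the 10 members, Opn5-null C the highest for 5 and Opn5-null D the highest for 5. Around the genotype mean of log2(normalized count + 1), Angptl7 stood at -1.04 in Opn5-null A and 1.07 in C, Aspn at -0.96 and 0.77, and Ogn at -0.82 and 0.85. Lum, Dcn and Bgn were instead highest in Opn5-null D, by 0.30, 0.31 and 0.32. In wild-type libraries no member stood further than 0.55 from its mean, and Dcn and Bgn stayed within 0.06. The 8 SLRP members together took 0.446%, 0.562%, 0.719% and 0.761% of all reads in Opn5-null A to D, against 0.509% to 0.555% in the wild-type libraries.

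**Figure D4:**
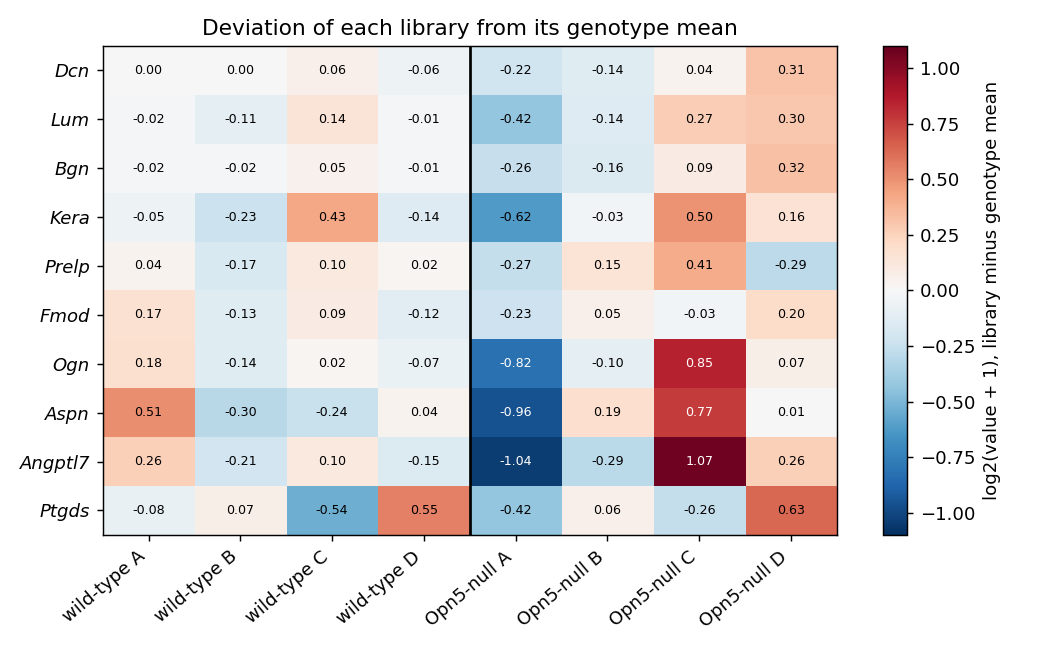
Deviation of each library from its own genotype mean on the log2(normalized count + 1) scale, with members in rows and libraries in columns. Opn5-null A is blue for every member, and the widest swings belong to Angptl7, Aspn and Ogn between Opn5-null A and C.

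Other cell types also differed between the groups, and these values stand beside the members' because whole corneas were sequenced. In bulk RNA, fewer cells of a type and less RNA per cell cannot be told apart. The counts below stand beside 18.8% higher and 13.5% lower over all genes tested. All 11 rows of the 10 leukocyte markers were higher, and their summed level was 180627, 117521, 64547 and 135752 normalized counts in Opn5-null A to D, against 21474 to 37463 in wild-type. Opn5-null A, lowest for most members, was highest for leukocyte markers, and C was lowest of its genotype. Corneal epithelium markers summed to 113109 in Opn5-null D and 378408 to 464937 in the other Opn5-null libraries, against 607883 to 713545 in wild-type, with 1 of 10 lower and a median log2 fold change of -0.95. For 8 of the 10 epithelial markers all Opn5-null libraries lay below all wild-type ones, as for 18.1% of all genes tested. The lower count was 3 with quantile and upper-quartile scaling and with DESeq2, 4 with total-read scaling, 5 with limma-voom and 0 with edgeR. It was 7 without Opn5-null D, 2 without A, 3 without C, and leaving out any single wild-type library gave 0. Of the 8 lens markers 7 were lower, at 923 to 1531 against 1765 to 6076 summed normalized counts, and 1 was higher without Opn5-null D. The uncalled lens marker Bfsp1, chosen after its values were seen, held 704, 818, 787 and 191 of the sums in Opn5-null A to D. In wild-type libraries Bfsp1 held 573 to 678 (adjusted p = 0.720 by limma). Of the 6 pigment cell markers 2 were lower, at 137 to 452 against 391 to 678, and 4 were lower without Opn5-null D. Of the 8 corneal endothelium markers 1 was higher and 1 lower, at 24826 to 59494 against 33532 to 38101, and 2 were lower without Opn5-null D. With limma-voom, which called 3487 genes lower against 2175 in the main fit, 5 of them were lower, and with DESeq2 2 were higher. Retina and skeletal muscle markers had 0 calls in 7 and 3 genes tested, at 272 to 1321 against 193 to 1258 and at 42.7 to 90.8 against 34.8 to 304 summed normalized counts. At an unadjusted limma p below 0.05 both lists still had 0, as with edgeR and DESeq2, and without wild-type D 1 muscle marker was higher. No marker in these lists was at 0 in all libraries of a genotype. The part of these tissues in the members' differences was not tested.

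Markers of sclera, tendon and outflow tissue were followed because several SLRPs and Angptl7 are also made there. Of the 8 genes with values 1 was higher and 3 were lower, beside 18.8% and 13.5% of all genes tested. Their sums were 15209 to 20482 against 9460 to 10545 normalized counts. Thbs4 alone carried the higher sum: the other 7 genes summed to 758 to 890 normalized counts in Opn5-null against 1332 to 1834 in wild-type libraries. Myoc, the outflow tissue gene for myocilin, measured 642 ± 110 normalized counts in wild-type and 173 ± 28.5 in Opn5-null libraries (SD, n = 4), a log2 fold change of -1.88 (adjusted p = 0.000115 by limma). Tnmd, which encodes tenomodulin, measured 352 ± 47.8 in wild-type and 188 ± 10.3 in Opn5-null libraries, a log2 fold change of -0.89. Thbs4, the gene of thrombospondin 4, went the other way, with 8338 ± 538 in wild-type and 16592 ± 2196 normalized counts in Opn5-null libraries. The part of these tissues in the lower Angptl7 and Ogn levels was not tested.

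The calls of stromal cell and collagen genes stand beside 18.8% higher and 13.5% lower over all genes tested. Of the 16 fibroblast and mesenchymal markers 4 were higher and 2 lower (median log2 fold change 0.14), which is near those shares. Their summed level was 60382, 58719, 67423 and 103535 normalized counts in Opn5-null A to D, against 40314 to 44459 in wild-type libraries. Vim alone, chosen after its values were seen, measured 51533 normalized counts in Opn5-null D against 19140 to 23840 in A to C. It missed the threshold (adjusted p = 0.0603 by limma). Opn5-null D, highest in this sum, was also the library highest for Lum, Dcn and Bgn and lowest for epithelial markers. The part of this in the members' differences was not tested. Pdgfra, the gene of a growth factor receptor on stromal cells, measured 3811 ± 409 normalized counts in wild-type and 11611 ± 2709 in Opn5-null libraries (SD, n = 4). Fstl1, a secreted glycoprotein gene, was 2.02-fold higher, and Cygb, the gene of cytoglobin, had a log2 fold change of -1.31. Lsp1 was 3.15-fold higher, and leukocytes express it too. Cd34, a keratocyte surface marker, measured 965 and 980 normalized counts as wild-type and Opn5-null means, with a log2 fold change of 0.02 (adjusted p = 0.883), and was chosen after its values were seen. Of 12 stromal collagen genes 4 were higher and 0 lower (median 0.38), and at an unadjusted limma p below 0.05 and with edgeR and DESeq2 the lower count was also 0. With limma-voom quality weights 7 were higher and 1 lower. That fit called more genes of every kind, 4062 higher and 3487 lower, against 3029 and 2175 in the main fit. Col3a1, the collagen III gene, was 3.75-fold higher, and the collagen V genes Col5a3, Col5a2 and Col5a1 were 1.75-fold, 1.75-fold and 1.60-fold higher. The most abundant collagen I genes Col1a1 and Col1a2, also chosen after their values were seen, had log2 fold changes of 0.39 and 0.37 and missed the threshold, with adjusted p = 0.0718 and 0.0537.

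Genes of activated fibroblasts were higher in 7 of 11 cases and lower in 0 (median log2 fold change 0.70), beside 18.8% and 13.5% of all genes tested. In this list 1 was lower without Opn5-null D. The lower count was 0 at an unadjusted limma p below 0.05 and with edgeR and DESeq2, and 1 with limma-voom. Timp1, a metalloproteinase inhibitor gene, was 15.4-fold higher. Tnc, the gene of tenascin C, was 4.28-fold higher, the integrin gene Itga5 3.99-fold and Cthrc1, a collagen triple helix repeat gene, 3.33-fold. These genes are not confined to fibroblasts. The leukocyte sum given above was also higher in Opn5-null libraries and the epithelial sum was lower, and their part was not tested.

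The sugar chains of SLRPs are built by enzymes, and those of the chondroitin and dermatan sulfate pathway were higher in 10 of 21 cases and lower in 0 (median log2 fold change 0.38). Beside that, 18.8% of all genes tested were higher and 13.5% lower. Without wild-type A 6 were higher, and without Opn5-null C 1 was lower. The lower count was also 1 at an unadjusted limma p below 0.05 and with DESeq2, limma-voom and quantile, upper-quartile and total-read scaling, and 0 with edgeR. Chst11, a chondroitin 4-O-sulfotransferase gene, measured 468 ± 87.8 normalized counts in wild-type and 4420 ± 1841 in Opn5-null libraries (SD, n = 4), a log2 fold change of 3.14 (adjusted p = 0.000384 by limma). It measured 6446, 4259, 2022 and 4954 in Opn5-null A to D, highest in A and lowest in C like the leukocyte sum. Xylt1, whose xylosyltransferase starts the chain on the core protein, was 5.79-fold higher, and was also highest in Opn5-null A and lowest in C. Chsy1, a chain-polymerizing synthase gene, was 2.10-fold higher. Chst7, a 6-O-sulfotransferase gene, was 1.92-fold higher, a call lost without Opn5-null A or D or wild-type A, B or C (adjusted p from 0.0515 to 0.0733). Chsy1 and Chst7 were instead highest in Opn5-null D. The part of leukocytes in these differences was not tested.

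Keratan sulfate enzymes were higher in 4 of 12 cases and lower in 1 (median log2 fold change 0.31), beside 18.8% and 13.5% of all genes tested. Chst2, an N-acetylglucosamine 6-O-sulfotransferase gene, measured 137 ± 7.38 normalized counts in wild-type and 754 ± 371 in Opn5-null libraries (SD, n = 4), a log2 fold change of 2.34. The sialyltransferase gene St3gal1 was 3.18-fold higher. Chst1, the keratan sulfate galactose 6-O-sulfotransferase gene, was 2.57-fold higher, and lost its call without Opn5-null B or any single wild-type library (adjusted p from 0.0529 to 0.0927) and with quantile normalization. B3gnt2, a chain-extending enzyme gene, was 1.59-fold higher, a call lost without wild-type A, C or D (adjusted p from 0.0534 to 0.0628). The 1 lower gene was Slc35a3, a transporter of UDP-N-acetylglucosamine, with a log2 fold change of -0.44 (adjusted p = 0.0315), chosen after its values were seen. Chst5, the mouse gene for the corneal N-acetylglucosamine sulfotransferase, and B3gnt7, both also chosen after their values were seen, had log2 fold changes of -0.36 and 0.15 (adjusted p = 0.308 and 0.555). Without wild-type A, C or D 2 genes of the list were higher, and with limma-voom 7 were higher and 2 lower. Of all genes tested limma-voom called 4062 higher and 3487 lower. The lower count was 0 without Opn5-null A or B or any single wild-type library, and 2 without Opn5-null C. Chst2, Chst11, Xylt1 and St3gal1 act on other glycoproteins or in leukocytes as well. The leukocyte sums were also higher in Opn5-null libraries, and their part was not tested.

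Sulfate supply genes were higher in 1 of 10 cases and lower in 0 (median log2 fold change 0.01), beside 18.8% and 13.5% of all genes tested. The lower count was also 0 at an unadjusted limma p below 0.05 and with edgeR and DESeq2. With quantile, upper-quartile and total-read scaling the counts turned to 0 higher and 1 lower, and with limma-voom and DESeq2 2 were higher. The higher gene was Ugdh, kept in this list although it makes the UDP-glucuronate used in chondroitin chains and does not itself supply sulfate. It measured 2717 ± 278 in Opn5-null against 2267 ± 91.5 normalized counts in wild-type libraries (SD, n = 4). Its call was lost without Opn5-null B or any single wild-type library (adjusted p from 0.0696 to 0.124), and without Opn5-null C 2 genes of the list were higher. Under those 3 scalings Ugdh missed the threshold, at log2 fold changes of 0.14, 0.14 and 0.13. Papss1, Papss2 and Slc26a2, chosen after their values were seen, which activate and import sulfate, had log2 fold changes of -0.32, 0.03 and -0.01, and none passed.

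**Figure D5:**
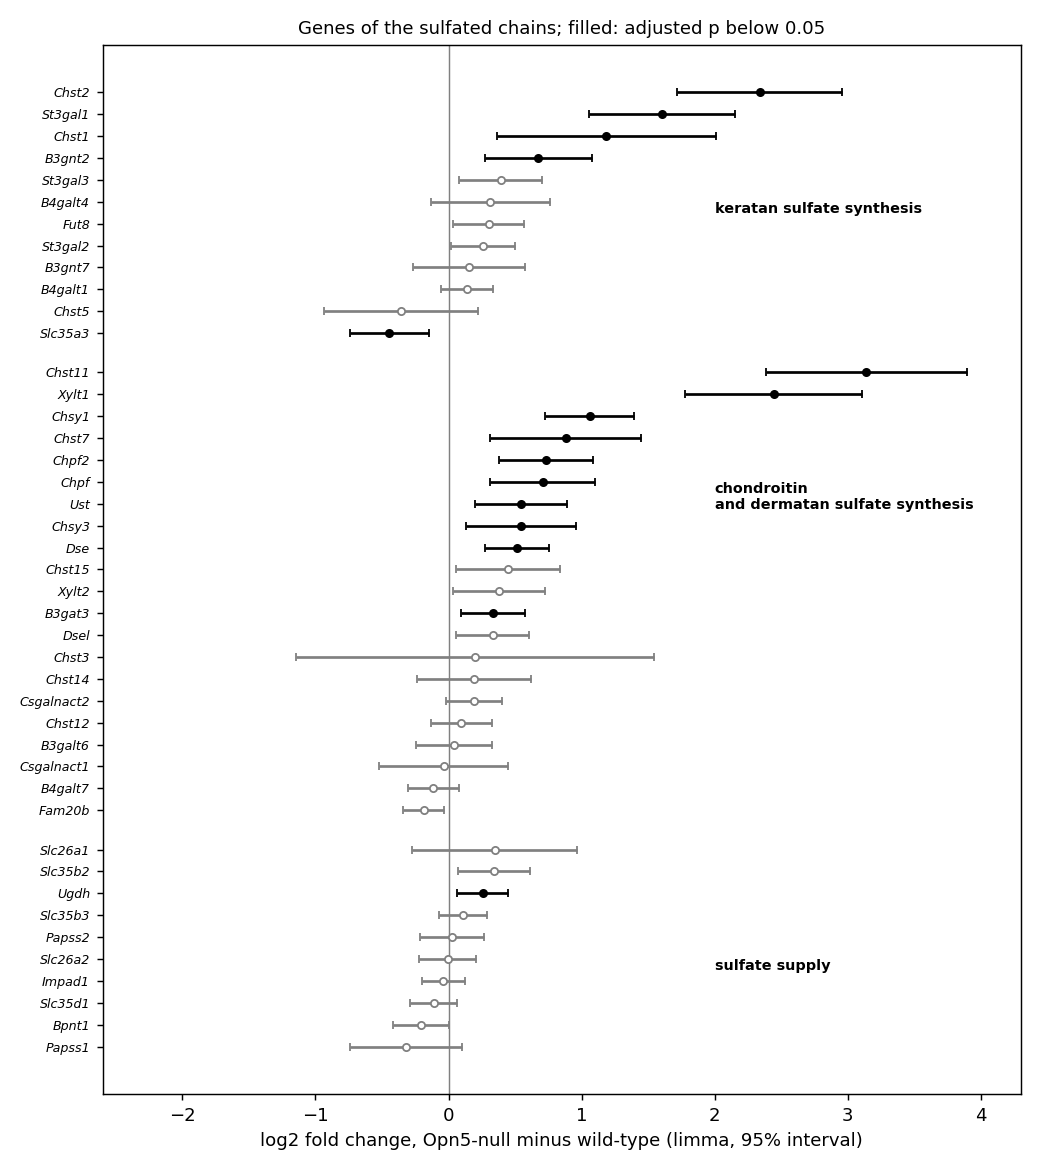
Log2 fold changes (Opn5-null minus wild-type, limma, bars are 95% intervals) of genes that build keratan sulfate and chondroitin or dermatan sulfate chains and supply sulfate; filled symbols have adjusted p below 0.05. Chst11, Xylt1 and Chst2 lie furthest right, and the sulfate supply genes cluster around 0.

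Genes with the most similar profile were sought over the 8 libraries, as the smallest root mean square difference of centred log2(normalized count + 1) among 11325 genes with a mean of at least 100. For Lum they were Shox2 at 0.09, Itm2a at 0.11 and Bgn at 0.12. Shox2, a homeobox transcription factor gene, measured 101, 84.5, 125 and 99.0 normalized counts in wild-type A to D and 125, 143, 207 and 212 in Opn5-null A to D, highest, like Lum, in wild-type C and Opn5-null D. Itm2a, a membrane protein gene, measured 774 to 918 in wild-type and 1057 to 1875 in Opn5-null libraries. For Kera the nearest were Shox2 at 0.15, Lum at 0.17 and Itm2a at 0.17. For Angptl7 the nearest were Slc26a7 at 0.29, Aldh1a1 at 0.33 and Lrtm2 at 0.37. Slc26a7, an anion transporter gene, measured 1177 to 1799 normalized counts in wild-type and 196 to 713 in Opn5-null libraries. Aldh1a1, a corneal aldehyde dehydrogenase gene, measured 2738 to 4302 and 532 to 1816. Among the other members Ogn was the nearest to Angptl7, at rank 55 and a difference of 0.68, and Aspn was next at rank 655.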

How the data were processed

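Total RNA from whole cornea was sequenced after ribosomal and globin depletion with a stranded kit, per the labels' protocols. RSEM 1.3.1 was used, per the submitters' processing notes. Which aligner, build, annotation and strand option went with it is not given in the sources used here. As deposited, the values are a signal of gene counts that the authors divided by 1 size factor per library, and 100% of them came out as whole reads within 0.001. Recovered depth was 21111715 to 28219234 reads per library. The authors' deposited table also gave a log2 fold change and p-values, quoted only where named.

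The 16085 of 16091 genes that reached a value of 1 in 4 or more libraries were fitted with limma 3.58.1 (R 4.3.3, trend and robust settings) on log2(value + 1) by genotype, with Benjamini-Hochberg adjustment over all genes, and every adjusted p in the report comes from it unless named otherwise. edgeR 4.0.16 (quasi-likelihood) called 5125 genes on the recovered reads and DESeq2 1.42.0 called 6231, beside 5204 with limma. The fit by limma-voom with quality weights called 4062 genes higher and 3487 lower. Only the limma fit was run on simulated counts, with the same scatter in both genotypes. That run does not cover the unequal scatter of these libraries. Other alternatives were quantile, upper-quartile, TMM and total-read scaling (the last chosen after seeing the data), a pseudocount of 0.1, no filter, a filter at 1 CPM, a replicate block, limma-voom with quality weights, and leaving out each library. Samples were grouped by the genotype label. Libraries of 1 genotype differed by more than sampling noise, with a chi-square per gene of 10.3 or more.

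The members and gene lists were chosen with earlier results of these data known. Named genes were all members, up to 4 called genes per list with the largest absolute log2 fold change, and the 3 genes nearest in profile to Kera, Lum and Angptl7; exceptions are marked, and single retina markers are not reported here. Exon lengths and positions came from GENCODE M21, which matched 16063 identifiers.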

Additional observations from a re-analysis of the deposited data

Results flagged for a closer look

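Among the 20 sets of 4 libraries examined (10 members in 2 genotypes), 1 held a library that stood apart from the rest. Bgn in wild-type C measured 11556 normalized counts, above the next wild-type library at 11109, a gap that made up 0.905 of the range of the 4. Chance alone marks about 1 in 20 such sets. The wild-type Bgn values differed little in absolute terms, and wild-type C lay below every Opn5-null library, the lowest of which measured 14110.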

How the results depend on the processing

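Genes lower in Opn5-null corneas numbered 2175, against 3746 with quantile normalization, 3663 with upper-quartile scaling, 3324 with total-read scaling, 3487 with limma-voom quality weights, and 1079 to 2543 with 1 library left out. Members called higher numbered 0 with quantile normalization, and members called lower numbered 1 to 2 with 1 library left out. The log2 fold changes of some uncalled genes changed sign. Prelp was at -0.031 (quantile), -0.010 (upper-quartile) and -0.025 (total-read), and from -0.032 to 0.202 with 1 library left out. With 1 library left out Fmod ran from -0.115 to 0.027 and the log2 fold change of Tnnt3 (a muscle marker) from -0.912 to 0.136. The cause was not tested. Deviations of same-letter libraries correlated at -0.15, -0.13, 0.14 and 0.13, within the -0.28 to 0.32 of libraries with unlike letters. That shows no sign of pairing by letter, but so few libraries cannot exclude it. A replicate block gave 2545 genes higher and 1691 lower, and 3 members in each direction, with Kera (limma adjusted p = 0.0300) and Ptgds (0.0495) joining. It left 0 other SLRP genes lower, 2 keratan sulfate genes and 0 sulfate supply genes higher, and 2 epithelial markers lower. The Bgn to Dcn and Fmod to Lum differences of 0.33 and -0.76 then had adjusted exact permutation p = 0.1875, since 4 pairs cannot reach 0.05. Read depth limits Aspn and Ptgds most, with as few as 137 and 58 reads in a library.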
